A study of Mus musculus with 6 samples.

Results

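Hepcidin, the liver hormone that lowers iron in the blood, is switched on in hepatocytes by bone morphogenetic protein (BMP) signals. BMP6 and BMP2, made mainly by the endothelial cells of the liver sinusoids, bind type I and type II receptors on hepatocytes with the co-receptor hemojuvelin. The receptors phosphorylate SMAD1, SMAD5 and SMAD8, which join SMAD4 and raise Hamp, the hepcidin gene, along with the general BMP targets Id1, Smad6, Smad7 and Atoh8. Smad6, Smad7 and the protease gene Tmprss6, whose product cleaves hemojuvelin, hold the signal back. The product of Atoh8 is a transcription factor of the basic helix-loop-helix class and has been described as a positive regulator of hepcidin.

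The genes described here are 10 members of that axis, chosen by gene symbol: Atoh8, Hamp, its mouse-specific copy Hamp2, the inhibitors of helix-loop-helix factors Id1, Id2 and Id3, Smad6, Smad7, Bmp6 and Tmprss6. They are 10 of the 47729 genes in the count files and 10 of the 13767 genes tested, since every member passed the filter on low counts. RNA was sequenced from frozen livers of C57BL/6 mice that had eaten a diet with 0.1% DDC for 17 days. DDC is a porphyrinogenic compound that blocks ferrochelatase and injures bile ducts and hepatocytes. The controls (3 libraries) are named shNC in the series design and WT in the sample titles and genotype labels. The knockdown group (3 libraries) is named shAtoh8 and Atoh8 KD. Both groups ate the DDC diet, so no liver without injury is part of the comparison. The vector, the cells that carried the hairpin RNA and the sex and age of the mice are not given in the sources used here. The tissue is labelled liver although the labelled cell type is hepatocyte. The labels do not say whether replicates were separate animals. The p-values therefore measure only how far these samples spread, and that spread may be technical. The comparison asked how transcript levels differed between shAtoh8 and shNC livers under the same diet.

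Between 31912058 and 37969644 reads per library fell in genes. Values by library are listed in the order of replicates 1, 2 and 3. Control replicate 1 stood apart from the other libraries. Its log2 levels followed the GC content of the transcripts, for which the tested genes were divided into 10 bins of equal size. In the bin with the lowest GC content the median gene lay at -1.98 on the log2 scale relative to control replicates 2 and 3, and in the highest bin it lay at 0.71. The knockdown libraries differed from control replicates 2 and 3 in the same direction, by -0.60 and 0.22 at those ends. Results are therefore given from 4 edgeR quasi-likelihood fits: all 6 libraries, without control replicate 1, and each of these with a library-specific correction (an offset) for the GC content and length of transcripts, which was added after the data were seen. The defining hepatocyte gene Alb was abundant in every library, and the 10 hepatocyte markers summed to between 107613 and 152529 CPM (read counts scaled to a common library size with TMM factors) in controls and between 103823 and 121579.7 CPM in knockdown libraries. Other liver cells were also present. The 12 sinusoidal endothelial markers summed to between 269 and 303 CPM in controls and between 258 and 333 CPM in knockdown, the 9 Kupffer cell markers to between 257 and 434 and between 416 and 481 CPM, and the 11 stellate cell and fibroblast markers to between 212 and 259 and between 343 and 488 CPM. The 8 monocyte and lipid-associated macrophage markers summed to between 142 and 268 CPM in controls and between 498 and 801 CPM in knockdown. Without Spp1 the remaining 7 summed to between 104 and 237 and between 176 and 269 CPM, and the groups overlapped. In whole-liver RNA, fewer cells of a type and less RNA per cell cannot be told apart.

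With all 6 libraries 0 of the 10 members passed edgeR at a Benjamini-Hochberg adjusted p under 0.05, where 0.814% of all tested genes did (0.123% as lower and 0.690% as higher). At an unadjusted p under 0.05 there were 3 members, Atoh8, Hamp and Hamp2, where 14.3% of all tested genes reached it. These were also the members whose groups did not overlap, all lower in shAtoh8, as were 10% of all tested genes. DESeq2 called 2 members, Atoh8 and Hamp2, and 5.13% of all genes with an adjusted p. By limma-voom with quality weights 4 of 10 members were called, near the 36.9% of all tested genes. Without control replicate 1, 4 of 10 members passed edgeR (32.7% of all tested genes): Atoh8, Hamp and Hamp2 as lower (16.2% of all tested genes) and Bmp6 as higher (16.5%). In that fit the groups of these 4 members did not overlap, as for 58.6% of all tested genes (29.9% lower). With the offset 2 of 10 passed as lower, Atoh8 and Hamp2, both with all libraries (4.25% of all tested genes, 2.03% as lower) and without control replicate 1 (31.8%, 19.5% as lower). The median member had a log2 fold change of -0.67 with all libraries, against -0.05 for all tested genes, and of -0.09 without control replicate 1, against 0.01.

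**Figure D1:**
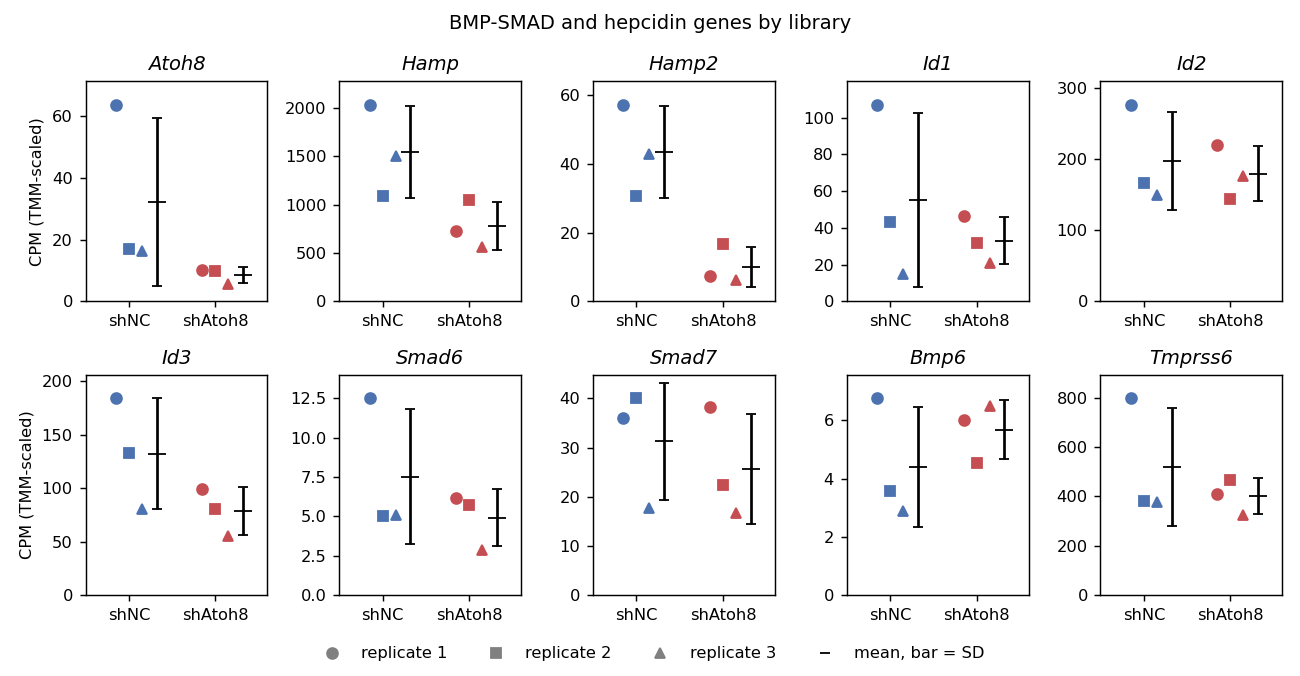
TMM-scaled CPM of each member gene in the 3 shNC (blue) and 3 shAtoh8 (red) libraries, with marker shape giving the replicate number and the black bar the group mean and SD. Atoh8, Hamp and Hamp2 do not overlap between groups, and control replicate 1 (circle) is the highest of all 6 libraries for every member except Smad7.

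Hamp and Hamp2 lie on chromosome 7, minus strand, at chr7:30942368-30944032 and chr7:30922372-30924681 of GRCm38. Their proximal promoters are shown because both genes were lower in every knockdown library and differ in the letters of the BMP response element. The sequences are RefSeq promoter windows of GRCm38.p6, cut to 245 bases that end just before the RefSeq transcription start, at chr7:30944035-30944279 for Hamp and chr7:30924187-30924431 for Hamp2, on the minus strand. GENCODE M21 starts 2 of its 3 Hamp2 transcripts at base 30924181, next to the window, and 1 at 30924681. The Hamp2 window therefore lies inside the annotated gene, downstream of the transcript start at 30924681. Capitals mark the BMP response element core GGCGCC, the STAT motif TTCNNNGAA and the E-box CANNTG, which helix-loop-helix factors bind. All 3 motifs read the same on both strands, and none of the marked matches overlaps another.
Hamp: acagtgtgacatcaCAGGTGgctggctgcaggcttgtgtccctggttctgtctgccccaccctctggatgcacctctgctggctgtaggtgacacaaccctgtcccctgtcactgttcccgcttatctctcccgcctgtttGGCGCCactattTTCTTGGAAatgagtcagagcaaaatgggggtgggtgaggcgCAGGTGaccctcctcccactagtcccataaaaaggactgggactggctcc
Hamp2: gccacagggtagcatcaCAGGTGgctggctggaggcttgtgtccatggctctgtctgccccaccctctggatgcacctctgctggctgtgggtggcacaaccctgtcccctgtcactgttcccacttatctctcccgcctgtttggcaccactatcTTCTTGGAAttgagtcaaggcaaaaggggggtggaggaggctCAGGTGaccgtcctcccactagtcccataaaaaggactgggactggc
Of 242 aligned bases, 223 (92.1%) were identical. Both windows held 1 STAT motif and 2 E-boxes, and the Hamp window alone held the BMP response element core, 109 to 104 bases before the RefSeq start. The stretch around that element, at chr7:30944103-30944153 and chr7:30924252-30924302, follows with the differing bases in capitals.
Hamp: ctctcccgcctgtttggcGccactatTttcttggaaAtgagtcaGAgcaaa
Hamp2: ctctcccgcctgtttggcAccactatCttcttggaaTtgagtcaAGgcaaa
The substitution inside the element is G145A, counted from 1 at the 5′ end of the Hamp window. Among 32851 RefSeq promoter windows of the same length, 9.34% held GGCGCC, 6.90% held TTCNNNGAA and 65.7% held CANNTG. A promoter window was found for 7 of the 10 members. Of the other windows, that of Id2 held 1 GGCGCC and 1 E-box, those of Atoh8 and Bmp6 held 2 E-boxes each, and those of Id3 and Smad6 held none of the 3 motifs. A match to these letters is a description of the sequence and not evidence of binding.

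Atoh8 (ENSMUSG00000037621, chromosome 6, 72206177 to 72235577, minus strand; positions are GRCm38, GENCODE M21) is the targeted gene and checks the labels. The gene had 63.7, 16.8 and 16.4 CPM in shNC livers against 10.2, 9.82 and 5.64 CPM in shAtoh8 livers. Every knockdown library lay under every control, and control replicate 1 lay 3.84-fold above the mean of the other controls. The log2 fold change was -1.92 (SE 0.58, 95% interval -3.29 to -0.54) with all libraries, which did not pass (edgeR adjusted p = 0.206). The gene has a GC content of 62.2%, in the highest GC bin, the range in which control replicate 1 read high. With the offset its log2 level fell by 1.85 (SE 0.36) and passed (edgeR adjusted p = 0.0366), and with control replicate 1 left out as well it fell by 1.32 (SE 0.15, edgeR adjusted p = 0.000306). Without control replicate 1 and with no offset it fell by 0.95 (SE 0.23, edgeR adjusted p = 0.0107), which leaves 51.9% of the control level. Atoh8 reads remained in every knockdown library, between 242 and 422, and the estimated size of the knockdown depended on which controls entered and on the offset.

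Hamp, the hepcidin gene itself (ENSMUSG00000050440), was among the most abundant transcripts of these livers, ranking between 10 and 23 of 47719 genes by FPKM. The gene had 2033, 1089 and 1501 CPM in shNC livers against 722, 1044 and 561 CPM in shAtoh8 livers. The groups did not overlap, but knockdown replicate 2 came close to control replicate 2. The log2 fold change of -0.99 (SE 0.33, 95% interval -1.76 to -0.22) did not pass with all libraries (edgeR adjusted p = 0.237). Hamp fell by 0.73 without control replicate 1 (log2, SE 0.25, edgeR adjusted p = 0.0475). That call was lost with the offset (-0.54, SE 0.24, edgeR adjusted p = 0.112). Of the 10 hepatocyte markers 9 also had negative fold changes with all libraries, with a median of -0.49 and 0 past edgeR, and the median was -0.03 without control replicate 1. Among them Cps1, an enzyme of the urea cycle, and Ttr, the thyroxine carrier transthyretin, had non-overlapping groups, with log2 fold changes of -0.81 and -0.61, and both fell without control replicate 1 (-0.64 and -0.53, edgeR adjusted p = 0.0397 and 0.0438). Alb differed little, at -0.06 (SE 0.24). The part of these hepatocyte values in the Hamp result was not tested.

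Hamp2 (ENSMUSG00000056978), a copy of the hepcidin gene on the same chromosome, showed a larger difference. The gene had 57.2, 30.5 and 42.7 CPM in shNC livers against 7.29, 16.7 and 6.13 CPM in shAtoh8 livers. Even the highest knockdown library lay well under the lowest control. The group means were 43.5 ± 13.4 and 10 ± 5.79 CPM (SD, n = 3). With all libraries the log2 fold change was -2.11 (SE 0.44, edgeR adjusted p = 0.0907). Hamp2 fell by 1.86 without control replicate 1 (SE 0.45, edgeR adjusted p = 0.03), by 1.98 with the offset (SE 0.39, edgeR adjusted p = 0.0376) and by 1.71 with both (SE 0.43, edgeR adjusted p = 0.0401). Its fold change thus lay between -2.11 and -1.71 in the 4 fits, and its GC content of 51.3% lay near the middle of the tested genes.

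The ratio of the 2 hepcidin genes does not depend on library scaling. Hamp2 made up 2.74%, 2.72% and 2.76% of the reads on both genes in control replicates 1 to 3, with exact 95% binomial intervals from 2.56% to 2.92% over the 3 libraries. In knockdown replicates 1 to 3 it made up 1.00%, 1.57% and 1.08%, with intervals from 0.890% to 1.70%. The controls thus differed by less than their counting error, although their Hamp counts ranged from 38007 to 61400 reads, and control replicate 1 did not stand apart. The level of these shares holds for the read counts. By FPKM the means of Hamp2 and Hamp were 574 and 8670.2 in shNC livers and 114 and 4477 in shAtoh8 livers. Relative to Hamp, Hamp2 was thus higher by FPKM than by reads in both groups. The log2 ratio of Hamp2 to Hamp reads was lower in knockdown by 1.22, from -5.15 ± 0.0113 to -6.37 ± 0.354 (SD, n = 3). A two-sided exact permutation test gave p = 0.1, the smallest value that 3 against 3 libraries allow. Hamp2 thus differed from Hamp by more than the spread between libraries, with groups that did not overlap, but this permutation test cannot reach a p under 0.05 here.

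**Figure D2:**
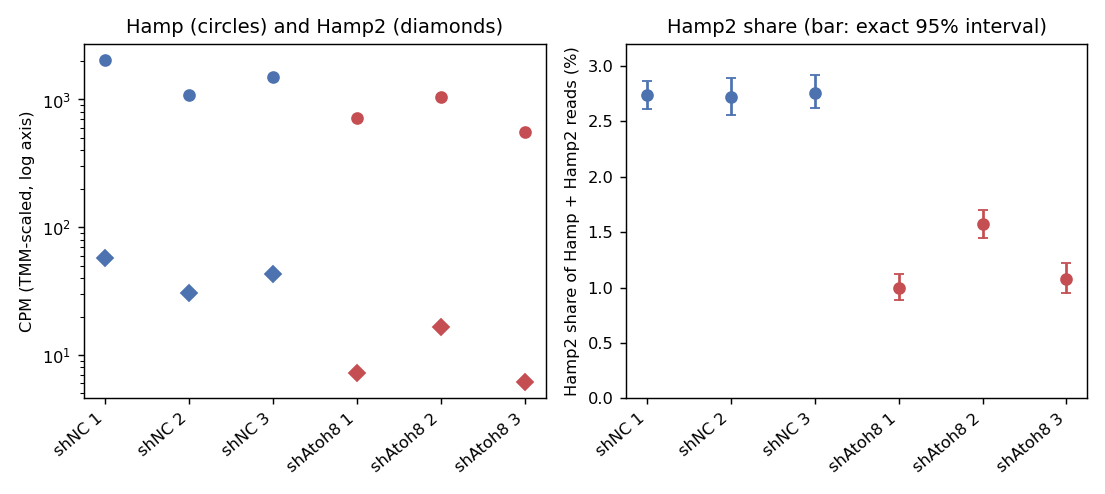
Left, TMM-scaled CPM of Hamp (circles) and Hamp2 (diamonds) in each library on a log axis. Right, the share of Hamp2 among reads on both genes, in percent with exact 95% binomial intervals: the 3 shNC libraries (blue) lie between 2.72% and 2.76% and the 3 shAtoh8 libraries (red) between 1.00% and 1.57%.

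Reads of the 2 genes cannot be told apart by sequence where their transcripts are identical. Only exact matches were counted, and confusion of reads in stretches that differ by few bases was not examined. The longest identical stretch was 87 bases, and 15.5% of all 50-base windows of the longest Hamp2 transcript, 3.58% of its 75-base windows and 0 of its 100-base windows also occurred in a Hamp transcript. The sources used here do not give the read length, so the share of reads placed on the wrong copy is unknown. An antisense noncoding gene, Gm44662, shares 89 exonic bases with Hamp2 (15.3% of its exonic bases) and had 0 reads in every library. Whether the counting used strand is not given, so reads from that overlap cannot be assigned to a strand.

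Of the Id genes, which encode helix-loop-helix proteins without a DNA-binding region, Id1 is the most widely used readout of BMP signalling in liver. Id1 (ENSMUSG00000042745, chromosome 2, 152736251 to 152737410) had 107, 43 and 14.6 CPM in shNC livers against 46.3, 31.6 and 21 CPM in shAtoh8 livers. All 3 knockdown libraries lay inside the control range, which spanned 7.34-fold, the widest of the members. The log2 fold change was -0.74 with all libraries (95% interval -2.29 to 0.81, edgeR adjusted p = 0.674) and 0.20 without control replicate 1 (95% interval -1.31 to 1.71). These intervals hold both a fall as large as that of Atoh8 and a rise, so the data cannot place Id1 in either direction.

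Id3 (ENSMUSG00000007872, chromosome 4, 136143497 to 136145755) had 184, 133 and 80.1 CPM in shNC livers against 99.7, 80.2 and 54.9 CPM in shAtoh8 livers. Knockdown replicate 3 was under all controls, and the others lay within the control range. Its log2 fold change was negative in each of the 17 alternatives, between -1.02 and -0.44, and passed in none of them (edgeR adjusted p = 0.393 with all libraries). Id2 (ENSMUSG00000020644, chromosome 12, 25093799 to 25097140, minus strand) was the most even of the family, with 276, 166 and 149 CPM in shNC livers against 219, 143 and 176 CPM in shAtoh8 livers. Its log2 fold change was -0.13 with all libraries (95% interval -0.82 to 0.55) and 0.21 without control replicate 1 (95% interval -0.19 to 0.60).

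The inhibitory SMADs are BMP targets that block the receptors in a feedback loop. Smad6 (ENSMUSG00000036867, chromosome 9, 63953076 to 64022059, minus strand) had 12.5, 5.04 and 5.07 CPM in shNC livers against 6.20, 5.75 and 2.84 CPM in shAtoh8 livers. Control replicate 1 was the highest, and the other controls lay within the knockdown range. The log2 fold change was -0.61 with all libraries (edgeR adjusted p = 0.620) and -0.03 without control replicate 1 (95% interval -0.71 to 0.66). With the offset and without control replicate 1 it was -0.46 (95% interval -1.01 to 0.08, edgeR adjusted p = 0.171). Smad7 (ENSMUSG00000025880, chromosome 18, 75367529 to 75395935) had 36, 40 and 17.8 CPM in shNC livers against 38.2, 22.4 and 16.6 CPM in shAtoh8 livers. Here control replicate 2 was highest and control replicate 3 among the lowest, and the log2 fold change was -0.28 (95% interval -1.23 to 0.67, edgeR adjusted p = 0.799).

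Bmp6, the ligand (ENSMUSG00000039004, chromosome 13, 38345107 to 38500302), was the only member with a positive fold change with all libraries, 0.37 (95% interval -0.50 to 1.23, edgeR adjusted p = 0.713). The gene had 6.75, 3.58 and 2.89 CPM in shNC livers against 6.01, 4.54 and 6.48 CPM in shAtoh8 livers. Control replicate 1 was above every knockdown library, and the other controls were under all of them. With control replicate 1 left out Bmp6 rose by a log2 fold change of 0.83 (SE 0.26, edgeR adjusted p = 0.0302). That call was lost with the offset (0.42, SE 0.26, edgeR adjusted p = 0.228). Bmp6 had between 89 and 278 reads per library, a GC content of 57.8% in the highest bin, and 224 exonic bases (5.74%) shared with Txndc5 on the other strand. Tmprss6 (ENSMUSG00000016942, chromosome 15, 78439667 to 78468634, minus strand), whose protease cuts hemojuvelin from the cell surface, had 797, 381 and 379 CPM in shNC livers against 411, 467 and 324 CPM in shAtoh8 livers. Its log2 fold change was -0.37 with all libraries (edgeR adjusted p = 0.680) and 0.09 without control replicate 1 (95% interval -0.28 to 0.46). With the offset and without control replicate 1 it was -0.33 (95% interval -0.64 to -0.02, edgeR adjusted p = 0.0987).

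**Figure D3:**
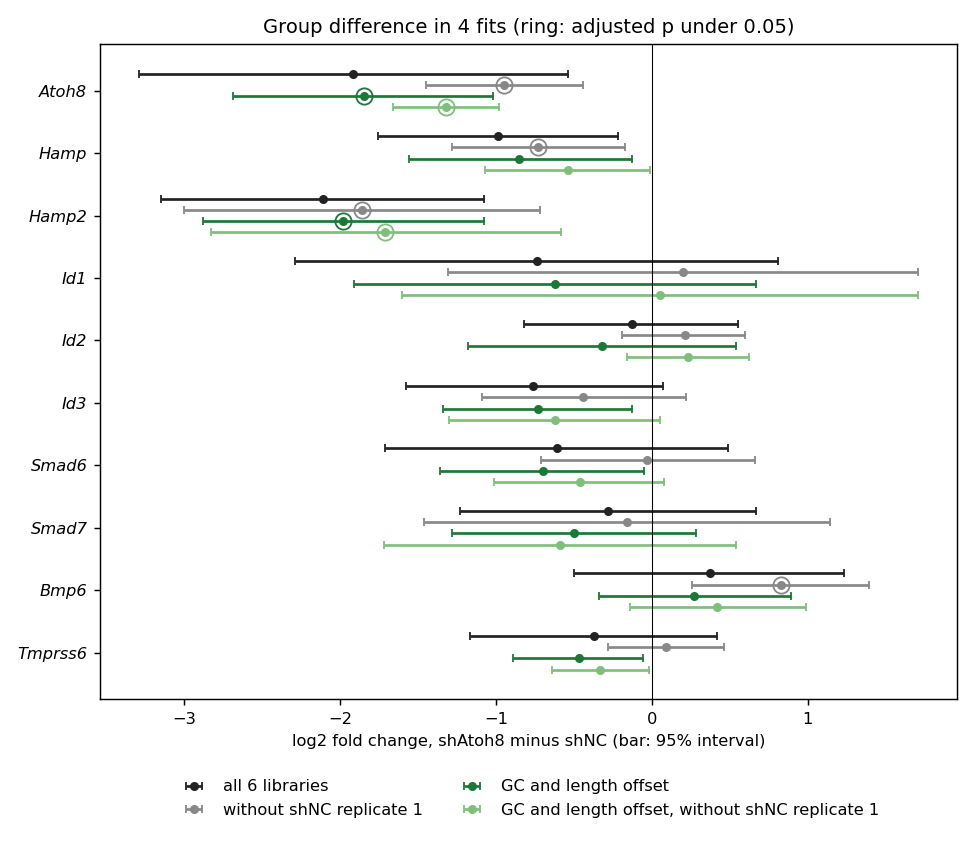
Log2 fold change of shAtoh8 over shNC for each member with its 95% interval, in the 4 edgeR fits named in the key. Rings mark an adjusted p under 0.05: Atoh8 and Hamp2 are ringed in 3 fits, and Hamp and Bmp6 only without control replicate 1 and without the offset.

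Levels between genes were compared per transcript length, as FPKM averaged over the 6 libraries. Hamp came first at 6574 FPKM, followed by Hamp2 at 344, Id2 at 182, Tmprss6 at 136, Id3 at 91.0, Id1 at 51.0, Atoh8 at 8.27, Smad7 at 7.87, Smad6 at 2.14 and Bmp6 at 1.81. Hamp was above Hamp2 in 6 of 6 libraries, as were Id2 above Tmprss6, Id3 above Id1, Id1 above Atoh8 and Smad7 above Smad6. Hamp2 was above Id2 in 4 of 6 libraries, and both exceptions were knockdown libraries: the means were 574 and 191 FPKM in shNC livers and 114 and 172 FPKM in shAtoh8 livers. FPKM and counts did not give Hamp2 the same level. The longest transcripts of Hamp and Hamp2 have 410 and 437 bases. In control replicate 1 they had 11676 and 789 FPKM but 61400 and 1729 reads. The place of Hamp2 in this order was read from FPKM alone, and why the 2 measures differ was not tested. Atoh8 was above Smad7 in 2 of 6 libraries, and its mean includes control replicate 1 at 24.5 FPKM, so these neighbours did not differ beyond their spread. Tmprss6 and Id3, and Smad6 and Bmp6, kept their order in 5 of 6 libraries.

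The members shared a feature that was not used to choose them. Control replicate 1 was the highest of all 6 libraries for 9 of 10 members, as it was for 32.5% of all tested genes. It was above both other controls for the same 9 members, as for 47.6% of all tested genes. Of the members, 9 have a GC content above 50%, from 50.5% for Hamp to 62.2% for Atoh8, and Id2 lies at 45.1%. Relative to control replicates 2 and 3, control replicate 1 was higher by 1.94 on the log2 scale for Atoh8, 1.30 for Smad6, 1.07 for Tmprss6 and 1.06 for Bmp6, against 0.71 for the median gene of their bin, the highest. For Id1 it was higher by 2.09, against 0.54 for the median gene of its bin. Id2 was higher by 0.81, whereas the median gene in its GC bin was lower, at -0.64. Smad7, at 0.43, lay under the median of its bin, 0.62. The part of GC content in the member differences was not tested beyond the fits with the offset.

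**Figure D4:**
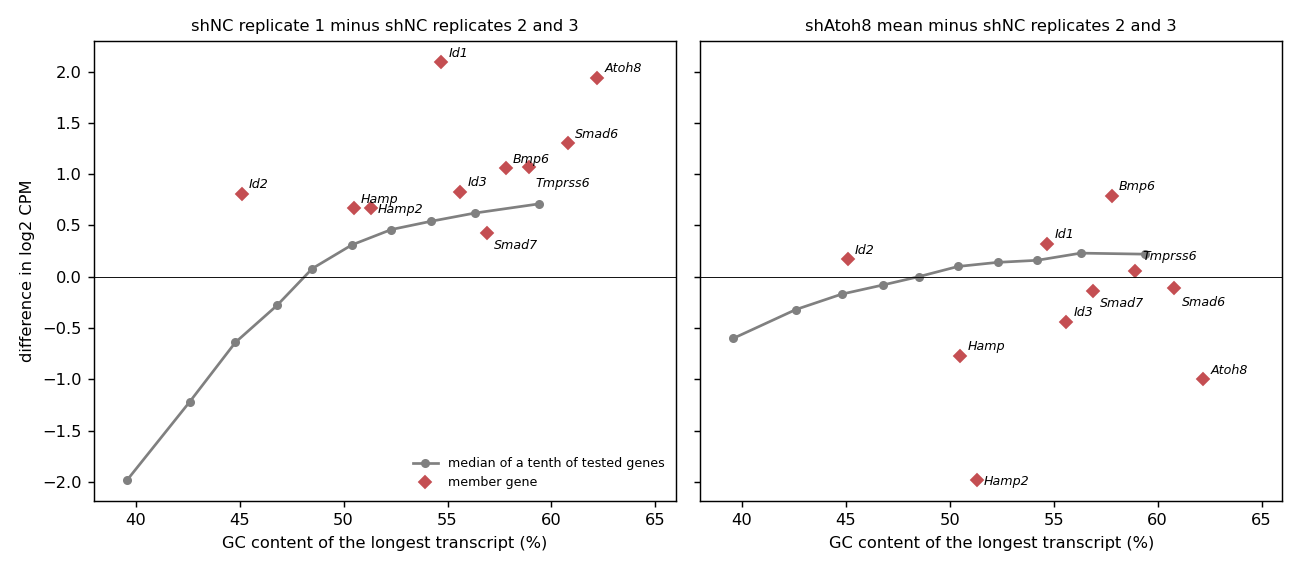
Difference in log2 CPM against transcript GC content in percent, for control replicate 1 (left) and the mean of the shAtoh8 libraries (right), each relative to control replicates 2 and 3. Grey points are medians of the 10 bins of tested genes and run from -1.98 to 0.71 on the left and from -0.60 to 0.23 on the right, and red diamonds are the member genes.

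Beyond the members, lists for the rest of the pathway held 63 distinct genes in the files, of which 51 were tested. With all libraries 0 of 51 passed edgeR (0.814% of all tested genes), 3 had an unadjusted p under 0.05 (14.3%), DESeq2 called 0 (5.13%) and limma-voom called 13 (36.9%). Without control replicate 1, 11 of 51 passed, 7 higher and 4 lower, a share below the 32.7% of all tested genes. Of these 11, 7 also passed in the same direction with the offset added, a fit in which 10 of 51 passed (31.8% of all tested genes). The median log2 fold change of the tested pathway genes was 0.07 with all libraries and 0.19 without control replicate 1.

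Among the other ligands 8 of 9 had positive fold changes with all libraries, with a median of 0.48, and 0 passed in any of the 4 fits. Bmp2, the other endothelial ligand for hepcidin, had 5.63, 9.37 and 9.38 CPM in shNC livers against 9.38, 13.2 and 11.5 CPM in shAtoh8 livers (log2 fold change 0.48, edgeR adjusted p = 0.498). Unlike Bmp6, it was lowest in control replicate 1. Bmp4 had 0.695, 1.38 and 0.649 CPM in shNC livers against 2.81, 1.54 and 1.72 CPM in shAtoh8 livers, and the smallest p of the list (log2 fold change 1.15, SE 0.45, edgeR adjusted p = 0.308). The groups of Bmp4 did not overlap, with knockdown higher, as for 13% of all tested genes. Bmp7 had a log2 fold change of 0.57 (SE 0.35). Gdf2, which encodes BMP9, had a log2 fold change of 0.18 (SE 0.33), and the stress-induced family member Gdf15 one of 0.16 (SE 0.35).

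Of 12 receptors and co-receptors 0 passed with all libraries. Hemojuvelin, listed as Hfe2, had 184, 109.7 and 97.3 CPM in shNC livers against 125, 117 and 118 CPM in shAtoh8 livers (log2 fold change -0.12, edgeR adjusted p = 0.876). Tfr2 and Hfe, which sense iron-loaded transferrin at the hepatocyte surface, had log2 fold changes of -0.52 (SE 0.39) and -0.20 (SE 0.22), and the type I receptor genes Acvr1 and Bmpr1a of -0.18 (SE 0.26) and -0.09 (SE 0.38). The endothelial type I receptor Acvrl1 stood at 0.51 (SE 0.38), the co-receptor endoglin (Eng) at 0.07 (SE 0.21) and the hemojuvelin-binding receptor neogenin (Neo1) at 0.18 (SE 0.21). The type II receptor genes Bmpr2 and Acvr2a fell without control replicate 1, by log2 values of 1.02 and 1.00 (edgeR adjusted p = 0.000443 and 0.00139). With the offset added they fell by 0.47 and 0.50 (edgeR adjusted p = 0.0130 and 0.0289). Their GC contents are 41.0% and 39.9%, at the end of the range where control replicate 1 read low, and with all libraries they stood at -0.55 and -0.60 (edgeR adjusted p = 0.736 and 0.650).

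The signal-carrying SMAD genes Smad1, Smad5, Smad9 and Smad4 had log2 fold changes between -0.37 and 0.24 with all libraries, with 0 of 4 past edgeR. Smad9, at -0.37 (SE 0.22), fell with the offset and without control replicate 1 (-0.60, edgeR adjusted p = 0.0333). In that fit 19.5% of all tested genes were called lower, and the median of all genes was -0.09. Without control replicate 1 and with no offset Smad9 did not pass (-0.43, edgeR adjusted p = 0.0742). Smad1 and Smad4 rose without control replicate 1, by 0.55 and 0.39 (edgeR adjusted p = 0.0163 and 0.0444), and neither passed once the offset was added (edgeR adjusted p = 0.144 and 0.267). Of the 12 tested inhibitors 0 passed with all libraries. Fst, which encodes the activin trap follistatin, had 3.21, 7.62 and 11.5 CPM in shNC livers against 15.7, 17.9 and 15.2 CPM in shAtoh8 livers. All knockdown libraries lay above all controls, as for 13% of all tested genes, with a log2 fold change of 1.13 (SE 0.43, edgeR adjusted p = 0.296). Fst rose by 0.78 without control replicate 1 (edgeR adjusted p = 0.0109) and by 0.82 with the offset added (edgeR adjusted p = 0.0124). Skil, which encodes the SMAD corepressor SnoN, fell by 1.40 and 0.95 in the same fits (edgeR adjusted p = 0.000104 and 0.00038). With all libraries it stood at -0.93 (edgeR adjusted p = 0.578), and control replicate 1, at 5.13 CPM, was under the knockdown libraries, at 13.6 to 14.5 CPM. Bmper, a BMP-binding secreted protein, rose in the same fits (1.47 and 1.21, edgeR adjusted p = 0.018 and 0.0381), and the ubiquitin ligase gene Smurf1 only without the offset (0.50, edgeR adjusted p = 0.0182, and 0.07 with it). In control replicate 1 Bmper had 5.66 CPM, above the 1.30 to 2.30 CPM of the knockdown libraries. Furin, whose product releases soluble hemojuvelin, had a log2 fold change of -0.08 (SE 0.38) with all libraries. Chrd, Bambi, Fkbp1a, Ski, Twsg1 and Smurf2, which also act as inhibitors, had values between -0.37 and 0.29 with all libraries. Smurf2 fell with the offset and without control replicate 1 (-0.37, edgeR adjusted p = 0.0225). Without that library and with no offset Smurf2 did not pass (-0.28, edgeR adjusted p = 0.0911). Fam132b, which encodes the hepcidin suppressor erythroferrone, had between 0 and 0.170 CPM and was not tested.

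Other BMP targets were scarce: of 8 listed, 5 were tested and 0 passed with all libraries. Id4, the remaining Id gene, had 0.199, 0.630 and 0.162 CPM in shNC livers against 1.45, 0.888 and 0.769 CPM in shAtoh8 livers (log2 fold change 1.62, SE 0.62, edgeR adjusted p = 0.30). Its groups did not overlap, with knockdown higher, as for 13% of all tested genes. Id4 had few reads, 6, 22 and 5 in shNC livers against 60, 34 and 33 in shAtoh8 livers. Without the counts of the knockdown libraries it would not have passed the filter on low counts. Its direction was thus tied to the filter and cannot be set against that share. Bambi, a decoy receptor induced by BMP, had a log2 fold change of 0.29 (SE 0.40). The inflammatory input to hepcidin runs from the interleukin-6 receptor through STAT3, and 0 of its 8 tested genes passed with all libraries. Il6st, the shared receptor subunit, stood at -0.30 (SE 0.17, edgeR adjusted p = 0.498), Stat3 at 0.08 (SE 0.25) and Creb3l3 at -0.03 (SE 0.19). The groups of Il6st did not overlap, with knockdown lower, as for 10% of all tested genes. Il6ra, Jak1 and Jak2 lay between -0.33 and 0.38. Cebpa, a hepatocyte factor that also acts on the hepcidin promoter, stood at -0.42 (SE 0.25) with all libraries. It fell with the offset and without control replicate 1 (-0.66, edgeR adjusted p = 0.0113), as did 19.5% of all tested genes. Without that library and with no offset Cebpa did not pass (-0.27, edgeR adjusted p = 0.324). Socs3, a STAT3 target, rose without control replicate 1 (1.00, edgeR adjusted p = 0.0128) and with the offset added (0.63, edgeR adjusted p = 0.0360), and stood at 0.29 with all libraries (edgeR adjusted p = 0.827). Il6 itself had between 0 and 0.130 CPM. The E proteins are the partners that helix-loop-helix factors pair with and that ID proteins sequester. Of them Tcf3 rose (0.95, edgeR adjusted p = 0.0128) and Tcf4 fell (-0.89, edgeR adjusted p = 0.00408) without control replicate 1. With the offset added Tcf3 passed (0.53, edgeR adjusted p = 0.0287) and Tcf4 did not (-0.42, edgeR adjusted p = 0.0653). Tcf12 stood at -0.27 and -0.12 in these fits. With all libraries Tcf3 stood at 0.40 (edgeR adjusted p = 0.720) and Tcf4 at -0.43 (edgeR adjusted p = 0.804). In control replicate 1 Tcf3 had 25.3 CPM, above the 14.3 to 24.4 CPM of the knockdown libraries. Tcf4 had 1.59 CPM there, under their 5.45 to 6.36 CPM. The GC contents of Tcf3 and Tcf4 are 61.0% and 40.9%, near the ends of the range.

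**Figure D5:**
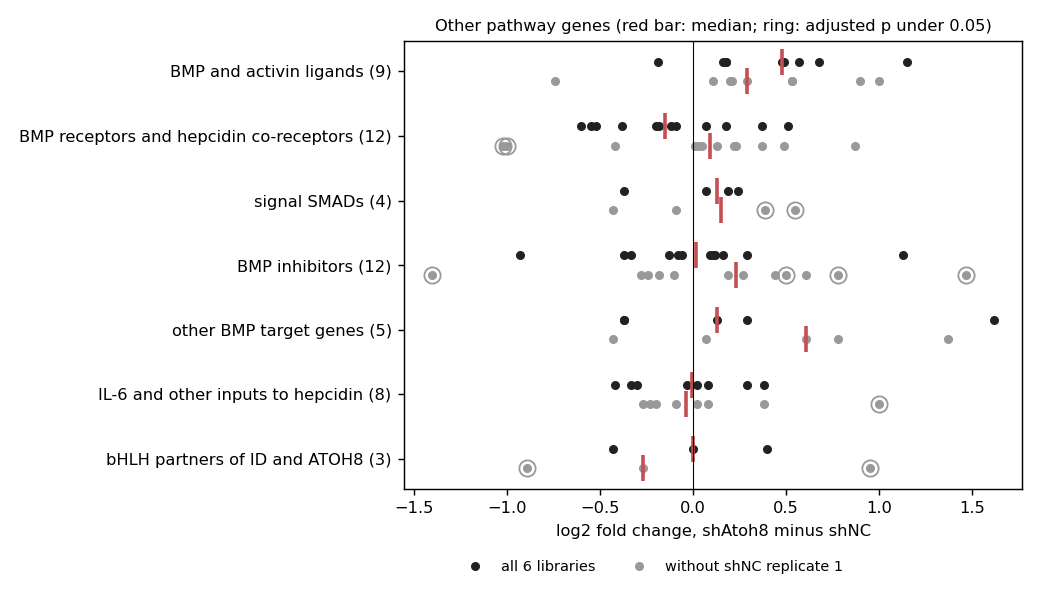
Log2 fold change of shAtoh8 over shNC for each tested gene of the pathway lists, with all libraries (black) and without control replicate 1 (grey). Red bars are list medians, rings mark an edgeR adjusted p under 0.05, and no black point is ringed.

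Of the 12 sinusoidal endothelial markers, a list that holds Bmp2 itself, 0 passed with all libraries, 6 had positive and 6 negative fold changes, and the median was -0.01. Without control replicate 1, 2 were higher (16.5% of all tested genes) and 1 lower (16.2%). Of the 11 stellate cell and fibroblast markers 1 was called higher with all libraries, Acta2, with a list median of 0.80 (0.99 without control replicate 1). The list was mixed, with 9 positive and 2 negative fold changes with all libraries. Without control replicate 1, Rgs5, Hand2, Lrat and Dcn had negative values (-0.80, -0.33, -0.17 and -0.17) and the others positive ones. Acta2 had 1, 1 and 0 reads in shNC livers against 52, 36 and 47 in shAtoh8 livers. It thus passed the filter on low counts only through the knockdown libraries. Of the 8 monocyte and lipid-associated macrophage markers 1 was called higher, Spp1, with a list median of 0.70 (1.58 without control replicate 1). Among all tested genes 0.690% were called higher with all libraries. All 9 Kupffer cell markers had positive fold changes, with a median of 0.39 (0.69 without control replicate 1) and 0 past edgeR. In the fit that left that library out, 6 stellate cell and fibroblast, 6 macrophage and 7 Kupffer cell markers were higher and 0 lower, beside 16.5% and 16.2% of all tested genes. Of these higher markers, Acta2, Ly6c2 and Ccr2 would not have passed the filter without the counts of the knockdown libraries. Ly6c2 had 0 reads in control replicates 2 and 3 against 11, 17 and 11 in knockdown. The direction of these markers, and their part in the list medians, was thus tied to the filter. The part of these cell types in the member differences was not tested. Of the 6 cholangiocyte markers 2 were tested, Sox9 (7.35 to 13.3 CPM) and Epcam (0.292 to 1.35 CPM), and Krt19 had at most 0.166 CPM. Of the 5 erythroid markers 1 was tested, Alas2 (12.8 to 31.7 CPM), and Slc4a1 was at 0 throughout.

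The genes whose pattern over the 6 libraries lay closest to that of Atoh8, by root mean square difference of centred log2 CPM among 8947 genes with at least 5 CPM, were Asl (0.342), Por (0.393), Fbxo31 (0.422), Afmid (0.426) and Izumo4 (0.428). Asl, an enzyme of the urea cycle, had 2223, 698 and 712 CPM in shNC livers against 335, 629 and 314 CPM in shAtoh8 livers. For Hamp the closest were Mif (0.111), Etnppl (0.112), Hspb8 (0.120), Shroom1 (0.120) and Atp5d (0.122). Mif, a cytokine gene, had 210.5, 143 and 171 CPM in shNC livers against 90.5, 117 and 66.5 CPM in shAtoh8 livers. Hamp2 was not among the nearest 5 to Hamp.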

How the data were processed

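Per library, the authors deposited gene-level raw counts (6 files), and for the series 1 table of FPKM values, fragments scaled to transcript length and library size. FastQC, Trim Galore, HISAT2 (listed as 2.10), HTSeq, Cufflinks 2.2.1 and the build GRCm38 (mm10) appear per the submitters' processing notes, which assign them no role. Strand settings are not given in the sources used here. Lines that name no gene held 2.48% to 5.66% (no feature) and 4.69% to 6.87% (ambiguous) of the reads and were left out. Symbols came from the FPKM table, and positions, GC content and length from GENCODE M21.

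Low counts were removed with filterByExpr. Libraries were scaled by TMM, and group was tested with the edgeR 4.0.16 quasi-likelihood test (robust, R 4.3.3), without covariates and with Benjamini-Hochberg adjustment over all genes tested. Log2 CPM used a prior count of 2. Alternatives were median ratio size factors, other filters, DESeq2 1.42.0, limma 3.58.1 on voom weights or on log2(FPKM + 1) and log2(FPKM + 0.1), the replicate number as a block, and each library left out. The GC and length offset (loess, span 0.3) was added after seeing the data. On simulated data edgeR with all 6 libraries found 0% of 50 genes changed 2-fold and 94% of 50 changed 4-fold, and made 6 false calls (13495 genes). In the simulation that left out control replicate 1, 2% and 52% were found (13639 genes). Both simulations drew independent counts with the dispersions of the fit to all 6 libraries, and neither held a library with a GC trend. The shares found therefore need not hold for the real libraries. They do not measure the power of the fit without control replicate 1. Intervals of shares cover counting error only. No pair of libraries agreed within sampling noise (chi-square per gene of at least 50.2). The members and lists were chosen with earlier results of these data known. Named genes were the members, those of each list that passed or had the smallest p or a mean of at least 5 CPM, and the 5 nearest to Atoh8 and to Hamp. Genes beside these were chosen after their values were seen. Some genes of the lists are not reported here.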

Additional observations from a re-analysis of the deposited data

How the results depend on the processing

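The count of genes called among all genes depended on the method and on single libraries. It was 112 with all libraries, 238 with no filter, 811 by DESeq2, 5085 by limma-voom, 20 by limma on log2(FPKM + 1) for genes with an FPKM above 0 in some library, 583 with the GC and length offset and 4513 with the offset and without control replicate 1. Leaving out single libraries gave between 0 and 4650 calls, the highest without control replicate 1. By edgeR it was 0 when shNC 2, shAtoh8 1 or shAtoh8 3 was left out (1599, 1088 and 1196 genes at an unadjusted p under 0.05), 15 without control replicate 3 and 10 without knockdown replicate 2. The offset took the share of higher calls from 84.8% to 52.1% (50.6% by limma-voom) and the median of all genes to -0.15. The same-numbered libraries did not deviate together in every case (correlations over genes of 0.253, -0.082 and 0.29), and the replicate block gave 33 calls and no call among the members.

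Atoh8 passed by DESeq2 (-1.92), limma-voom (-0.97) and with the offset (-1.85, and -1.32 without control replicate 1), and ranged from -2.24 to -0.95 with a library left out. Hamp passed by limma-voom (-0.74) and ranged from -1.20 to -0.73. Hamp2 passed with no filter (-2.07), by DESeq2 (-2.12), limma-voom (-2.04) and with the offset (-1.98, and -1.71 without control replicate 1), and ranged from -2.63 to -1.82. Bmp6 passed by limma-voom (0.76) and ranged from 0.13 to 0.83. Id1 turned positive by limma-voom (0.24) and with the offset without control replicate 1 (0.05), and ranged from -1.19 to 0.20. Id2 did so too (0.22 and 0.23), with a range of -0.30 to 0.21, and Tmprss6 by limma-voom (0.05), with a range of -0.56 to 0.09. The cause was not tested. Id3, Smad6 and Smad7 kept a negative sign in all 17 alternatives and passed in none.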
